A study of Mus musculus with 18 samples.

Results

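The genes described here are the 7 sirtuins (Sirt1 to Sirt7) together with Nampt, Cd38 and Parp1, which make or consume NAD. They were found by gene symbol and are 10 of the 25926 genes in the table, each present once. RNA-seq was performed on macrophages (BMDMs) grown from the bone marrow of C57BL/6J mice and differentiated for 7 days with M-CSF at 50 ng/mL. They were kept in Transwell inserts (0.4 μm pores) over renal tubular epithelial cells (TECs), so that the cell types shared medium without contact. Each of the 3 groups held 6 samples. In NC the BMDMs received PBS and the TECs no crystals. In COM the BMDMs received PBS while the TECs were exposed to calcium oxalate monohydrate (COM) crystals at 100 μg/mL for 24 h. In COM+Met the BMDMs above such TECs received Met at 5.0 mM for 24 h, and the sample labels do not spell out this abbreviation. The study asked how Sirt1 acts in macrophages facing such crystals.

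Sirtuins are enzymes that remove acetyl and other acyl groups from proteins and split NAD in every reaction, so their activity depends on the supply of this cofactor. Sirt1, Sirt6 and Sirt7 act mainly in the nucleus, Sirt2 mainly in the cytosol, and Sirt3, Sirt4 and Sirt5 in mitochondria. Nampt is the rate-limiting enzyme that rebuilds NAD from nicotinamide, while Cd38, a membrane glycohydrolase, and Parp1, a nuclear enzyme that attaches ADP-ribose to proteins at DNA breaks, break NAD down. In macrophages, Sirt1 is known to restrain NF-kappa B signalling through deacetylation of its subunit p65, and Cd38 is known to rise with inflammatory activation.

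All 10 genes were found in GENCODE M21 on GRCm38. Sirt1 lies at chr10:63319005-63381704 on the minus strand, Sirt2 at chr7:28766735-28788661 on the plus strand, Sirt3 at chr7:140863666-140882309 (minus) and Sirt4 at chr5:115478010-115484725 (minus). Sirt5 lies at chr13:43365496-43395203 (plus), Sirt6 at chr10:81621785-81627797 (minus) and Sirt7 at chr11:120618372-120625240 (minus). Nampt lies at chr12:32819545-32853349 (plus), Cd38 at chr5:43868553-43912375 (plus) and Parp1 at chr1:180568924-180601254 (plus). Sirt3 shares 342 exonic bases with Psmd13 and 418 with Ric8a, both on the opposite strand, which are 5.73% and 7.00% of its exonic bases. Sirt7 shares 124 exonic bases with Mafg, which lies on the same strand. Sirt1 shares 65 with the antisense gene Gm16145, and Sirt2 42 with Nfkbib on the opposite strand. Whether reads were counted by strand is not given in the sources used here, so reads from these stretches cannot be assigned with certainty. The stretch shared with Mafg would be ambiguous even if reads were counted by strand.

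The 250 bases before the RefSeq start site (GRCm38.p6) are shown for 3 of the genes, in the direction of transcription: Sirt1, on which the study centred, and Sirt2 and Cd38, whose samples did not overlap between COM and NC. Capitals mark every match, on either strand, to 5 motifs that were searched: the E-box CACGTG, the GC box GGGCGG, the interferon-stimulated response element (GAAA, any 2 bases, GAAA), the gamma-activated site TTCNNNGAA and the NF-kappa B consensus.
Sirt1 (chr10:63339036-63339285, minus strand): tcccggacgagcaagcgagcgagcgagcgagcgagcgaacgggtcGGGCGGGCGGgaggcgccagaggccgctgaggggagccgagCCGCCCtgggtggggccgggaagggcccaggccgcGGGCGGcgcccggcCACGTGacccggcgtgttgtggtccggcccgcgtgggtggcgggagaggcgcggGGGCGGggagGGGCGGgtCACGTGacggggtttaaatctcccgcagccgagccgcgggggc
Sirt2 (chr7:28766502-28766751, plus strand): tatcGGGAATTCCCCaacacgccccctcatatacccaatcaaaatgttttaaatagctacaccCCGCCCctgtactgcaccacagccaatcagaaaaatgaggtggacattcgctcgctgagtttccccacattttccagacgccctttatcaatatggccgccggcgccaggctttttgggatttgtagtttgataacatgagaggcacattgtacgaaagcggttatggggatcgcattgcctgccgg
Cd38 (chr5:43868559-43868808, plus strand): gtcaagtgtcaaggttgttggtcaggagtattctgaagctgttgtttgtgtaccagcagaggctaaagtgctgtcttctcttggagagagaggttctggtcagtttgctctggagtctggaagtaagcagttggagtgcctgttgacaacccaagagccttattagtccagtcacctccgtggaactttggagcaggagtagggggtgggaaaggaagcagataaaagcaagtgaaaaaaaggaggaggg
The Sirt1 window held 2 E-boxes and 6 GC boxes, including a pair that overlap. The Sirt2 window held 1 GC box and 2 overlapping NF-kappa B matches. The Cd38 window held none of the 5 motifs. Among 32851 windows of the same length before RefSeq start sites, 6.02% held an E-box, 32.7% a GC box, 2.98% the response element, 7.02% the gamma-activated site and 7.25% an NF-kappa B match. The response element was found in no window of the 10 genes, and the gamma-activated site in that of Sirt7 only. RefSeq starts can differ from the GENCODE bounds given above. The windows of Sirt1, Sirt4, Nampt and Cd38 lie wholly within those bounds, as do those of a further start of Sirt3 and of Sirt6. The windows of Sirt2, Sirt5, Sirt7 and the other start of Sirt6 lie partly within them. Other start sites were not searched. These matches describe the letters of the windows and say nothing of whether a factor bound there.

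The authors deposited FPKM (fragments scaled to gene length and to the total of each sample), which summed to between 380731 and 449186 per sample. Whole reads could not be recovered from these values, so the read depth behind them is unknown. Whether the 6 samples of each group are separate cultures or animals is not in the labels, so the p-values cover the spread among samples alone, and that spread may be technical. No batch is named. The COM samples were not uniform. Pearson correlations were 0.992 to 0.994 among COM-1, COM-2 and COM-3 and 0.995 between COM-4 and COM-5, but 0.948 to 0.951 between these sets. COM-6 stood apart from both, at 0.888 to 0.935, and NC-5 and NC-6 reached no more than 0.962 with the other NC samples. All 10 macrophage markers averaged at least 1 FPKM in every group. Of 11 tubular epithelial markers only Cdh1 did so, at 12.9 FPKM in NC, and Umod and Krt18 were at 0 in all samples. The summed FPKM of 10 neutrophil markers was 395 to 597 in NC, 307 to 330 in COM-1 to COM-3, 34.2 to 67.5 in COM-4 to COM-6 and 19.5 to 45.5 in COM+Met, most of it from S100a8 and S100a9, while Mpo, Elane and Retnlg were at 0 in COM and COM+Met. Camp, also on the neutrophil list, went another way, with means of 4.33 FPKM in NC, 7.93 in COM and 3.08 in COM+Met. The part of other cells in the results below was not tested.

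In NC, mean FPKM ran from 138 for Nampt through 69.1 for Sirt2, 30.4 for Sirt7 and 18.8 for Parp1 down to 2.47 for Sirt4. The samples of these first 4 genes did not overlap with those of the next gene in the order, whereas Sirt6 (7.74), Cd38 (7.21) and Sirt1 (6.60) each overlapped with the next, down to Sirt3 (6.39). Sirt3 lay apart from Sirt5 (2.86), which overlapped with Sirt4. In COM, Cd38 stood first at 142 FPKM and overlapped with Nampt at 139. In COM+Met, Nampt (115) was again above Cd38 (80.3) with no overlap, followed by Sirt2, Sirt7, Parp1 and Sirt6, each apart from the next. Sirt2 was the most abundant sirtuin and Sirt7 the next in every group. As these are bulk samples, fewer cells of a type and less RNA per cell cannot be told apart.

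**Figure D1:**
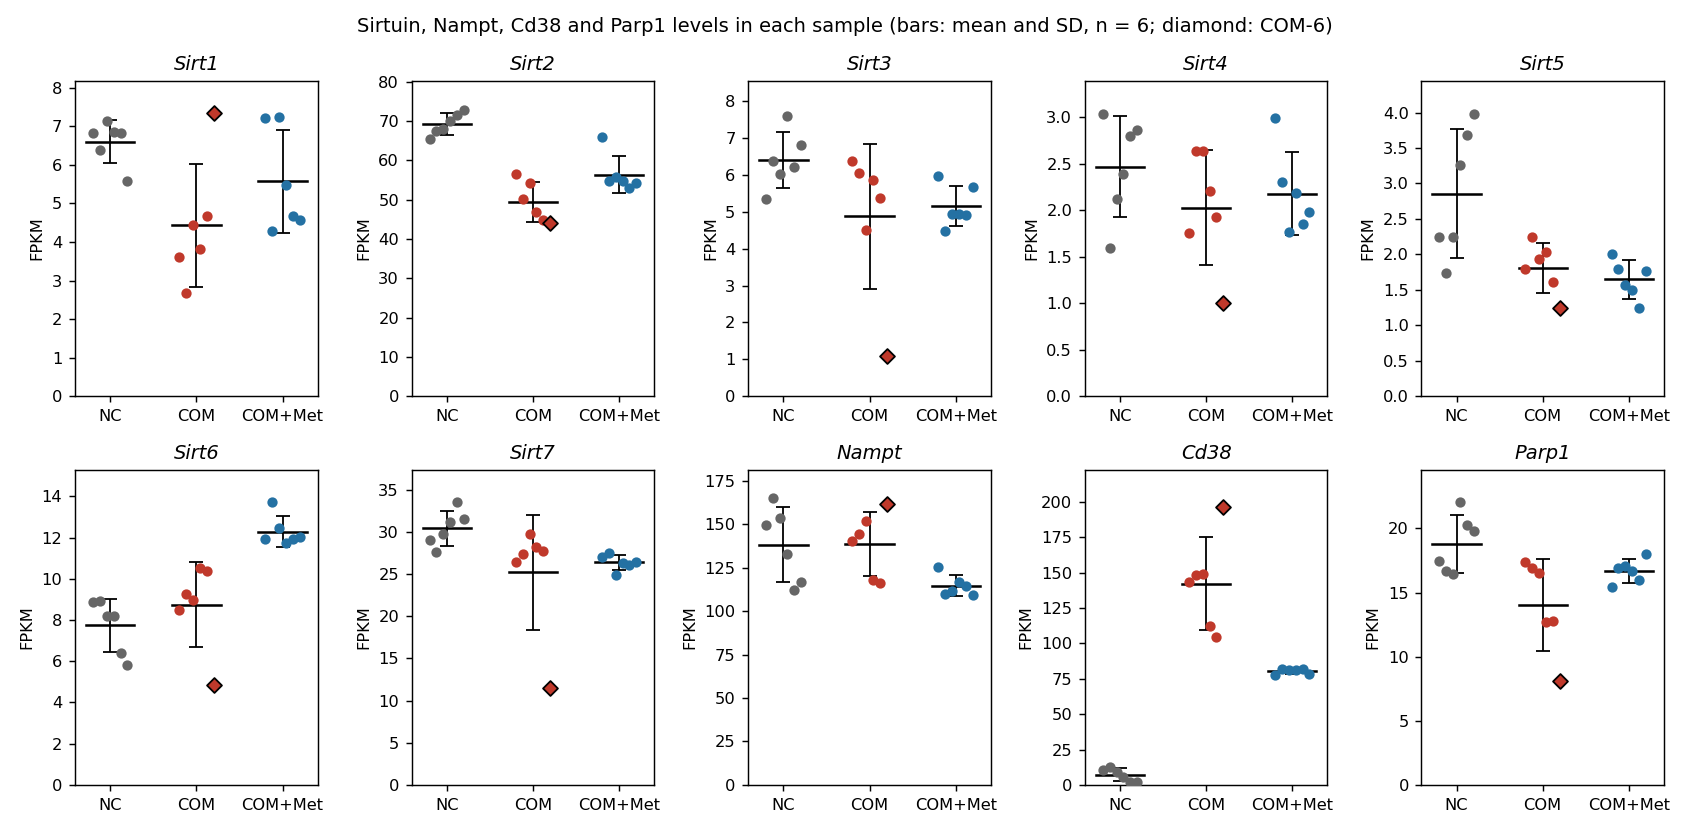
FPKM (vertical axes, from 0) of the 10 genes in each of 18 samples, by group (horizontal axes); points are samples, lines and bars the mean and SD of 6 samples, and the diamond is COM-6. Cd38 lay between 2.13 and 13.01 FPKM in NC, 105 and 196 in COM and 78.0 and 81.8 in COM+Met. COM-6 was the lowest COM sample for Sirt2 to Sirt7 and Parp1 and the highest for Sirt1, Nampt and Cd38.

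Changes were tested on log2(FPKM + 1), a scale that understates the changes of low genes, with limma and Benjamini-Hochberg adjustment over all genes that averaged 1 FPKM or more. All 10 genes passed this filter in each comparison. Between COM and NC, 5 of the 10 had an adjusted p below 0.05, with Cd38 higher and Sirt1, Sirt2, Sirt5 and Parp1 lower in COM. Of the 10900 genes tested, 53.3% passed, 12.7% higher and 40.6% lower, so that the count of members was close to that of genes at large. Cd38 alone changed at least 2-fold, as did 17.7% of all genes, and Cd38 and Sirt2 had samples that did not overlap, as did 38.2% of all genes. The count fell to 3 when NC-4, NC-5, NC-6 or COM-5 was left out, where 47.9% to 48.4% of all genes passed.

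Over all tested genes the median change between COM and NC was -0.27 on the log2 scale, and this shift bears on every lower value. Relative to it, Sirt1 stood at -0.26, Sirt2 at -0.21, Sirt5 at -0.16, Parp1 at -0.16, Sirt6 at 0.41 and Nampt at 0.28. Median-of-ratios size factors brought the median of all genes to -0.0013. With them 2 of the 10 genes passed, Cd38 and Sirt6, both higher in COM, and after quantile normalisation 3 passed, Cd38 and Sirt6 higher and Sirt2 lower. Of all genes, 46.9% passed with size factors and 48.1% after quantile normalisation, against 53.3% on the values as deposited. Over all genes, the higher genes made up 23.8% of those called on the values as deposited, 49.3% with size factors and 46.0% after quantile normalisation.

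**Figure D2:**
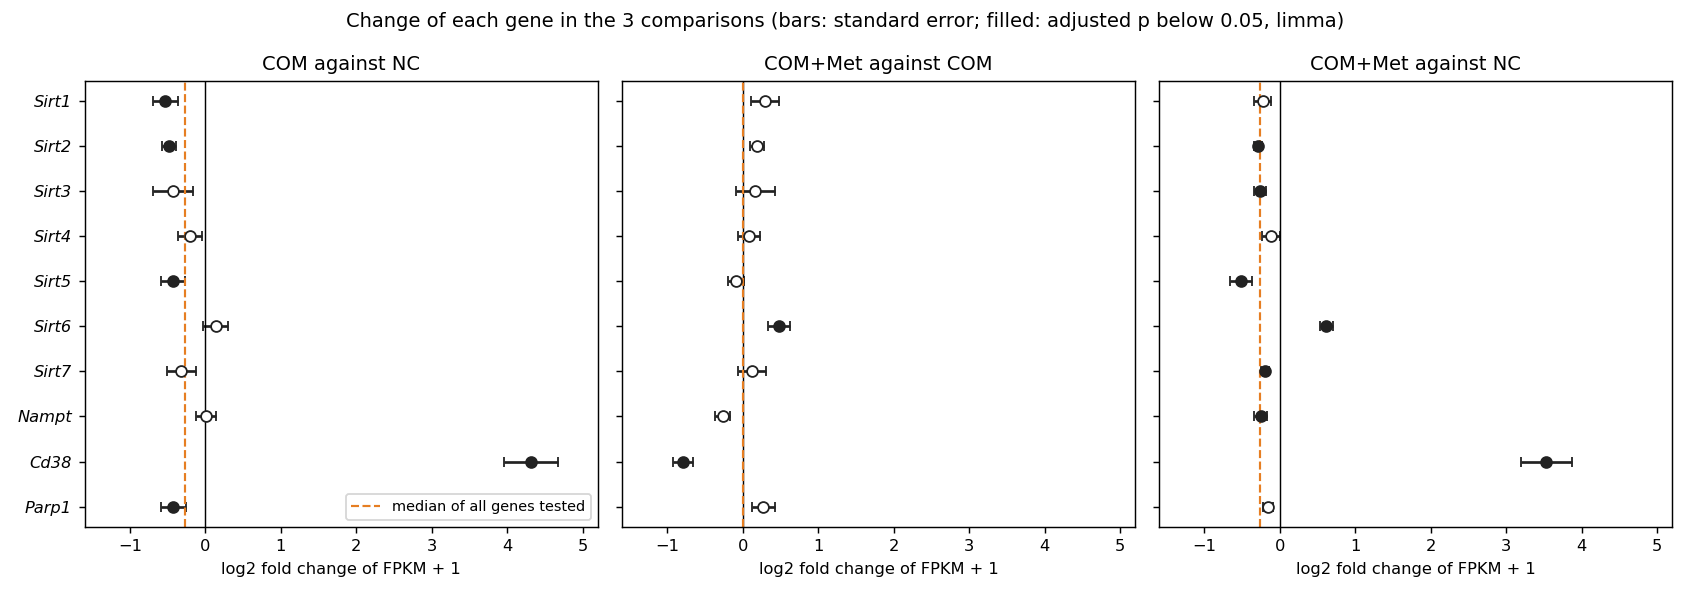
Log2 fold change of FPKM + 1 (horizontal axes) of the 10 genes (vertical axis) in the 3 comparisons; points are limma estimates with standard errors, filled where the adjusted p was below 0.05, and the dashed line is the median of all genes tested. Cd38 was at 4.32, -0.79 and 3.53 and was filled in all 3 panels, and the medians of all genes were -0.27, 0.0033 and -0.26.

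Between COM+Met and COM, 2 of the 10 genes passed, Sirt6 higher and Cd38 lower in COM+Met. Of 10364 genes tested, 13.4% passed, 5.77% higher and 7.58% lower. None of the 10 changed at least 2-fold, against 2.22% of all genes, and Sirt6 and Cd38 had samples that did not overlap, against 11.2%. The count was 1 when COM-1, COM-2, COM-3 or any single COM+Met sample was left out, where 9.08% to 10.9% of all genes passed. Between COM+Met and NC, 7 of the 10 passed, Cd38 and Sirt6 higher and Sirt2, Sirt3, Sirt5, Sirt7 and Nampt lower. Of 10786 genes tested, 75.2% passed in that comparison, 19.3% higher and 55.9% lower. Cd38 alone changed at least 2-fold, against 19.3%, and Cd38, Sirt6 and Sirt7 had samples that did not overlap, against 57.6% of all genes. With size factors 2 of these 7 passed, Cd38 and Sirt6, and Sirt7 and Nampt changed sign to 0.090 and 0.038 without passing. Of all genes, 70.7% still passed with size factors and 70.9% after quantile normalisation. After quantile normalisation 4 passed, Cd38 and Sirt6 higher and Sirt2 and Nampt lower, and Sirt3 changed sign to 0.043. The 3 comparisons share samples, so their values are not independent of each other.

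Nampt supplies the NAD that the other enzymes spend. Its FPKM ran from 112 through a median of 141 to 165.1 in NC, from 116 through 142 to 162 in COM and from 109 through 113 to 125 in COM+Met. NC and COM covered the same range, and the COM+Met samples lay at its lower end. The log2 fold change between COM and NC was 0.0078 (SE 0.13, adjusted p = 0.962), and its sign turned in 9 alternatives, among them the fits without COM-6 (-0.039) and without NC-5 and NC-6 (-0.12). The change from COM to COM+Met was -0.26 (SE 0.098, adjusted p = 0.0932), and it passed without COM-4 to COM-6 (-0.34, adjusted p = 9.53e-05), with sample weights (-0.35, adjusted p = 1.05e-05), without COM-4 (adjusted p = 0.0459) and without COM-5 (adjusted p = 0.0412). In COM+Met, relative to NC, Nampt fell by 0.26 (SE 0.091, adjusted p = 0.0214), whereas with size factors the difference was 0.038. Within NC, Nampt was 112 and 117 in NC-5 and NC-6 and 133 to 165.1 in the other samples.

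Cd38 hydrolyses NAD and its precursor, and forms the calcium messenger cyclic ADP-ribose. It was at 2.13 to 13.01 FPKM in NC (median 7.57), 105 to 196 in COM (median 146) and 78.0 to 81.8 in COM+Met (median 81.0). The lowest COM sample was thus above the highest COM+Met sample, and both groups were far above NC. Between COM and NC, Cd38 rose by 4.32 on the log2 scale, which is 19.9-fold (SE 0.36, adjusted p = 1.26e-06). It stayed past the threshold under all 25 alternatives, at 3.65 to 4.597. From COM to COM+Met it fell by 0.79 (SE 0.13, adjusted p = 0.00250), and the fall was 0.69 without COM-6, the highest sample. In a fit of all 18 samples, which share an estimate of the spread, adjusted p was 0.0829. COM+Met still exceeded NC by 3.53 (SE 0.34, adjusted p = 7.65e-07). The 6 COM+Met samples had an SD of 1.75 FPKM, against 32.7 in COM.

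The NC samples of Cd38 were not alike. NC-5 and NC-6 had 2.13 and 2.37 FPKM, and NC-1 to NC-4 had 5.90 to 13.01. Without NC-5 and NC-6 the rise between COM and NC was 3.76 (adjusted p = 3.93e-07). The ratio of Cd38 to Nampt FPKM within a sample, which does not depend on scaling between samples, was 0.0191 to 0.0788 in NC, 0.901 to 1.21 in COM and 0.623 to 0.744 in COM+Met. These ranges did not overlap.

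Parp1 consumes NAD when it builds ADP-ribose chains at damaged DNA. Its FPKM was 16.4 to 22.1 in NC (median 18.6), 8.07 to 17.4 in COM (median 14.6) and 15.4 to 18.01 in COM+Met (median 16.8). COM-1 to COM-3, at 16.5 to 17.4, lay within the range of NC, while COM-4 and COM-5 were both at 12.7 and COM-6 was lowest. Parp1 fell between COM and NC by 0.43 (SE 0.16, adjusted p = 0.0427). This call was lost when any of 6 samples was left out, namely COM-4, COM-5, NC-1 and NC-4 to NC-6 (adjusted p 0.0573 to 0.0905), without NC-5 and NC-6 together (adjusted p = 0.141), with size factors (-0.14) and after quantile normalisation (-0.21). The difference was -0.14 (adjusted p = 0.253) without COM-4 to COM-6. It was -0.72 (adjusted p = 0.00308) without COM-1 to COM-3. COM+Met differed from COM by 0.27 (SE 0.15, adjusted p = 0.267), and it was -0.021 (adjusted p = 0.735) without COM-4 to COM-6 and 0.56 (adjusted p = 0.0152) without COM-1 to COM-3. COM+Met differed from NC by -0.16 (SE 0.071, adjusted p = 0.0628), and adjusted p was 0.0332 without NC-2 and 0.0267 without NC-3.

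Sirt1 deacetylates histones and transcription regulators. It was at 5.59 to 7.13 FPKM in NC (median 6.83), 2.69 to 7.34 in COM (median 4.14) and 4.29 to 7.24 in COM+Met (median 5.07). COM-1 to COM-5 lay between 2.69 and 4.67, below every NC sample, whereas COM-6 was above all of them. The COM+Met samples fell into no such order, with COM+Met-1 and COM+Met-3 at 7.22 and 7.24 and the other four at 4.29 to 5.47. Between COM and NC, Sirt1 fell by 0.53 (SE 0.16, adjusted p = 0.0139), which is 1.44-fold on this scale. The fall was 0.66 (adjusted p = 0.000367) without COM-6. It was 0.75 (adjusted p = 0.000717) without COM-4 to COM-6 and 0.31 (adjusted p = 0.114) without COM-1 to COM-3. With size factors the difference was -0.26 (adjusted p = 0.323) and after quantile normalisation -0.23 (adjusted p = 0.373). Sirt1 differed between COM+Met and COM by 0.30 (SE 0.18, adjusted p = 0.309), and by 0.43 (adjusted p = 0.0506) without COM-6 and 0.52 (adjusted p = 0.0200) without COM-4 to COM-6. COM+Met differed from NC by -0.23 (SE 0.12, adjusted p = 0.0888), and adjusted p was 0.0249 without COM+Met-1 and, separately, without COM+Met-3. With size factors this last difference was 0.024 and after quantile normalisation 0.071.

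Sirt6 deacetylates histone H3 and represses glycolytic and NF-kappa B target genes. Its FPKM was 5.84 to 8.93 in NC (median 8.18), 4.87 to 10.5 in COM (median 9.12) and 11.7 to 13.7 in COM+Met (median 11.98). Every COM+Met sample was above every sample of both other groups, and COM-6 was the lowest of all 18. From COM to COM+Met, Sirt6 rose by 0.48 (SE 0.14, adjusted p = 0.0431) and it remained higher with size factors (0.48) and after quantile normalisation (0.49). The call was lost without COM-1, COM-2, COM-3 or any single COM+Met sample (adjusted p 0.0622 to 0.0959). Without COM-6 the rise was 0.34 (adjusted p = 0.00315). Against NC, Sirt6 in COM+Met rose by 0.62 (SE 0.092, adjusted p = 4.67e-05), and by 0.89 with either scaling. COM differed from NC by 0.14 (SE 0.16, adjusted p = 0.491), by 0.28 (adjusted p = 0.0470) without COM-6, by 0.41 (adjusted p = 0.0404) with size factors and by 0.42 (adjusted p = 0.0310) after quantile normalisation. Without NC-5 and NC-6, the lowest NC samples at 6.42 and 5.84 FPKM, that difference was -0.0020 (adjusted p = 0.994).

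Sirt7 deacetylates histone H3 and supports transcription of ribosomal RNA genes. It was at 27.7 to 33.5 FPKM in NC (median 30.5), 11.5 to 29.8 in COM (median 27.6) and 25.0 to 27.6 in COM+Met (median 26.4). COM-6, at 11.5, was far below the other COM samples, which lay between 26.5 and 29.8. COM differed from NC in Sirt7 by -0.32 (SE 0.19, adjusted p = 0.179), and by -0.12 (adjusted p = 0.131) without COM-6. COM+Met differed from COM by 0.12 (SE 0.19, adjusted p = 0.714), and by -0.079 (adjusted p = 0.238) without COM-6. Sirt7 fell between COM+Met and NC by 0.20 (SE 0.048, adjusted p = 0.00230), while with size factors the difference turned to 0.090.

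Sirt2 deacetylates tubulin and p65 in the cytosol. Its FPKM was 65.4 to 72.8 in NC (median 68.9), 44.1 to 56.5 in COM (median 48.5) and 52.9 to 65.9 in COM+Met (median 54.7). NC and COM did not overlap, and only COM+Met-1, at 65.9, reached the range of NC. Between COM and NC, Sirt2 fell by 0.48 (SE 0.089, adjusted p = 0.000708), or 1.396-fold. Among 25 alternatives this call was lost with size factors only (-0.18, adjusted p = 0.0613), and it held after quantile normalisation (-0.42, adjusted p = 0.000760), without COM-6 (-0.45) and without COM-4 to COM-6 (-0.36). Sirt2 differed between COM+Met and COM by 0.19 (SE 0.089, adjusted p = 0.183), by 0.31 (adjusted p = 0.0274) without COM-1 to COM-3 and by 0.068 (adjusted p = 0.395) without COM-4 to COM-6. Sirt2 fell between COM+Met and NC by 0.29 (SE 0.054, adjusted p = 0.000284), and with size factors the difference was -0.00091.

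Sirt3 is the main deacetylase of mitochondria, Sirt4 acts there on glutamine and leucine metabolism, and Sirt5 removes succinyl, malonyl and glutaryl groups. Sirt3 was at 5.34 to 7.59 FPKM in NC (median 6.29), 1.10 to 6.39 in COM (median 5.62) and 4.47 to 5.97 in COM+Met (median 4.95). The groups overlapped, and COM-6 alone had 1.10 FPKM while the other COM samples had at least 4.52. COM differed from NC in Sirt3 by -0.43 (SE 0.26, adjusted p = 0.180), and by -0.16 (adjusted p = 0.181) without COM-6. COM+Met differed from COM by 0.17 (SE 0.26, adjusted p = 0.712), and by -0.11 (adjusted p = 0.390) without COM-6. In COM+Met it fell, relative to NC, by 0.26 (SE 0.078, adjusted p = 0.00822), while after quantile normalisation the difference was 0.043.

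Sirt4 was low in all groups, at 1.60 to 3.04 FPKM in NC, 1.00 to 2.64 in COM and 1.77 to 2.99 in COM+Met. It passed no test, with adjusted p between 0.284 and 0.739. Sirt5 was at 1.73 to 3.98 FPKM in NC (median 2.75), 1.24 to 2.24 in COM (median 1.86) and 1.24 to 2.01 in COM+Met (median 1.67). Its NC samples divided, with NC-4, NC-5 and NC-6 at 3.26 to 3.98, above every other sample, and NC-1 to NC-3 at 1.73 to 2.25, while the highest COM sample was at 2.24. Sirt5 fell between COM and NC by 0.43 (SE 0.16, adjusted p = 0.0330). The call was lost without NC-4, NC-5, NC-6, COM-5 or COM-6 (adjusted p 0.0585 to 0.0751), without NC-5 and NC-6 together (adjusted p = 0.173), with size factors (-0.22) and after quantile normalisation (-0.090). COM+Met differed from COM by -0.082 (SE 0.11, adjusted p = 0.649). In COM+Met it fell, relative to NC, by 0.52 (SE 0.14, adjusted p = 0.00560), and with size factors the difference was -0.31 (adjusted p = 0.0536).

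The FPKM of the 7 sirtuins was also added within each sample, as a description. The sum was 120 to 131 in NC, 71.2 to 106 in COM and 104 to 123 in COM+Met. NC and COM did not overlap, and COM+Met overlapped with both. Shares of this sum do not depend on scaling between samples. Sirt2 made up 54.0% to 56.3% of the sum in NC, 46.4% to 61.9% in COM and 50.3% to 53.5% in COM+Met. Sirt6 made up 4.52% to 7.43%, 6.84% to 10.7% and 9.70% to 12.6%. Sirt1 made up 4.32% to 5.78% in NC, 2.67% to 4.84% in COM-1 to COM-5, 10.3% in COM-6 and 3.94% to 6.66% in COM+Met. The mitochondrial sirtuins together held 8.07% to 10.6% in NC, 8.53% to 10.9% in COM-1 to COM-5, 4.70% in COM-6 and 7.63% to 8.92% in COM+Met. In COM-6 the shares of Sirt1 and Sirt2 were thus the highest of all samples and that of Sirt7, at 16.2%, the lowest.

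**Figure D3:**
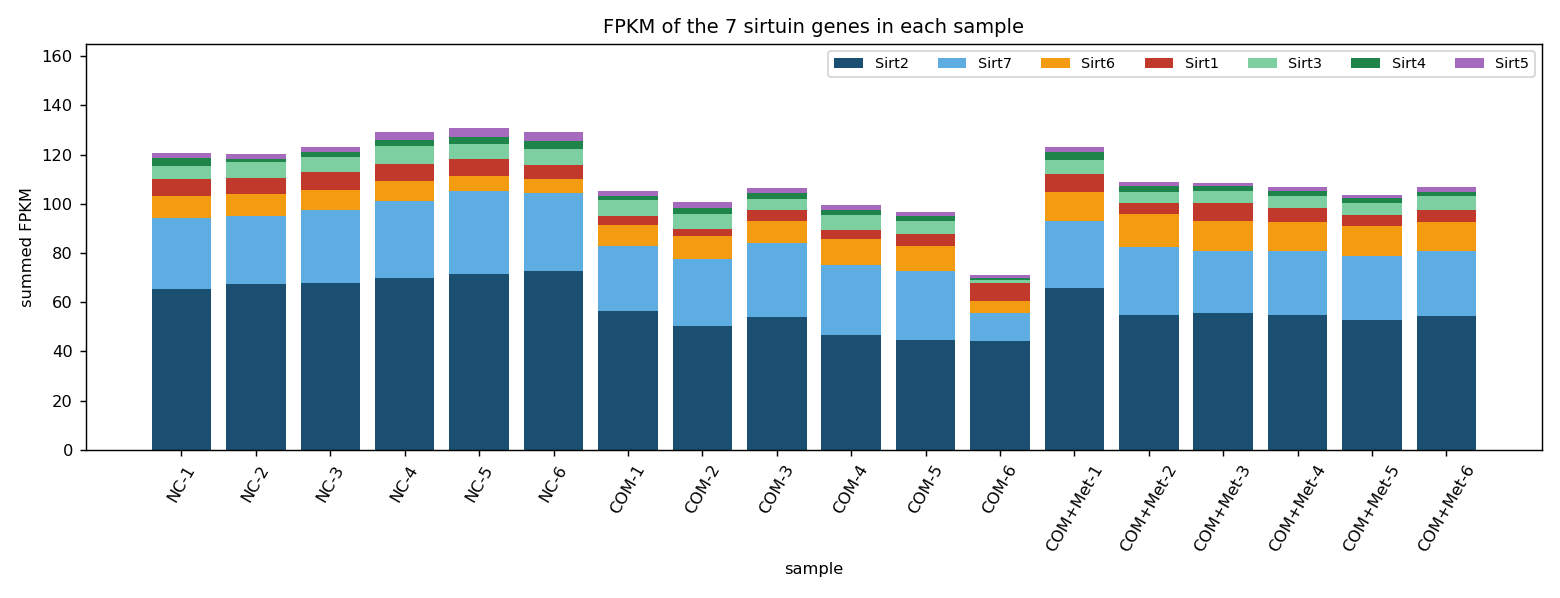
Summed FPKM of the 7 sirtuins (vertical axis, from 0) in each of 18 samples (horizontal axis), stacked by gene. The sums were 120 to 131 in NC, 71.2 (COM-6) to 106 in COM and 104 to 123 (COM+Met-1) in COM+Met, with Sirt2 and Sirt7 as the largest parts of every bar.

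Other genes of NAD metabolism were counted in hand-written lists, to be read against the shares of all genes given above. Of 7 genes of NAD salvage and its final steps, 4 passed the filter between COM and NC, and 1 was higher and 1 lower. Nmnat1, which joins nicotinamide mononucleotide to ATP in the nucleus, rose by 0.54 (SE 0.11, adjusted p = 0.00134), and by 0.77 with size factors. Nadsyn1, which makes NAD from its acid form, fell by 0.50 (SE 0.15, adjusted p = 0.0158), and with size factors the difference was -0.28 (adjusted p = 0.0701). Of 9 genes of NAD synthesis from tryptophan, 4 were tested, with 1 higher and 3 lower. Ido2, which opens the tryptophan ring, rose by 1.46 (adjusted p = 0.000124) from 0.410 to 2.96 FPKM. It passed the filter only through its COM values and was not tested without COM-1 to COM-3. Haao fell by 0.87, Afmid by 0.45 and Kynu, a kynureninase, by 0.44. Of these 3, Haao alone passed with size factors and none after quantile normalisation. Of 6 genes of NAD phosphorylation, transhydrogenation, transport and nicotinamide methylation, 4 were tested. The transhydrogenase Nnt was left out because 2 rows carry its symbol. Nnmt, which methylates nicotinamide, fell by 1.31, from a mean of 2.22 to 0.236 FPKM. It passed the filter only through its NC values and was not tested without NC-5 and NC-6. The mitochondrial NAD carrier Slc25a51 fell by 0.60 and the mitochondrial NAD kinase Nadk2 by 0.56. With size factors Slc25a51 and Nadk2 were both at -0.32 and passed, and after quantile normalisation Nadk2 was at -0.22 (adjusted p = 0.195). Bst1, a glycohydrolase related to Cd38, rose by 0.98 (SE 0.14, adjusted p = 0.000108), from 77.3 to 152 FPKM, with no overlap between the groups.

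The list with most genes higher in COM was that of the other ADP-ribosyltransferases of the PARP family. All 15 passed the filter, 9 were higher and 3 lower, and 6 were at least 2-fold higher. The median log2 fold change of the list was 0.47, against -0.27 for all genes. Parp14 rose from a mean of 24.1 to 169 FPKM, or by 2.77 (SE 0.32, adjusted p = 1.81e-05), Parp10 by 2.23, Parp12 by 1.82 and Parp9 by 1.63. These 4, which are known to be induced by interferon, had COM samples all above those of NC. Parp2, the closest relative of Parp1, Parp3 and the tankyrase Tnks were the 3 lower genes. With size factors 9 were higher and 0 lower, and after quantile normalisation 9 were higher and 1 lower. Without NC-5 and NC-6, 6 were higher and 2 lower, where 43.0% of all genes passed. Between COM+Met and COM 0 of the 15 passed in limma, and their median was 0.026. Without COM-4 to COM-6, 7 were higher and 2 lower in COM+Met (median 0.14), where 61.2% of all genes passed. Without COM-1 to COM-3, 0 were higher and 2 lower (median -0.14), where 23.9% of all genes passed. Parp14 averaged 196 FPKM in COM+Met, and its difference from COM was 0.31 (SE 0.22, adjusted p = 0.393).

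Of 5 enzymes that remove ADP-ribose, 4 were tested and 2 were lower in COM, Macrod1 by 1.41 and Oard1 by 0.55. Macrod1 averaged 4.04 FPKM in NC and 0.879 in COM, so that it passed the filter only through its NC values. With size factors and after quantile normalisation Macrod1 alone passed, and without COM-6 all 4 were lower, where 59.6% of all genes passed. Among 2 proteins that bind Sirt1, the inhibitor Ccar2 fell by 0.85 (SE 0.25, adjusted p = 0.0130), while Rps19bp1, an activator, differed by 0.016. The call of Ccar2 was lost without NC-5 and NC-6 (adjusted p = 0.0625), and its fall was 0.42 (adjusted p = 0.00461) without COM-4 to COM-6. Of 14 sirtuin substrates, 11 were tested, with 3 higher and 5 lower. The mitochondrial superoxide dismutase Sod2 rose by 1.97 from 69.4 to 255 FPKM and the cytosolic acetyl-CoA synthetase Acss2 by 0.99. The mitochondrial enzymes Idh2 and Glud1 fell by 1.30 and 1.15. All 4 kept their direction and passed with size factors and after quantile normalisation, but Acss2 did not pass without NC-5 and NC-6 (0.62, adjusted p = 0.111) or without COM-1 to COM-3 (0.47, adjusted p = 0.248).

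Deacetylases of the zinc-dependent family, which do not use NAD, were counted for comparison with the sirtuins. Of 11 genes 9 were tested between COM and NC, and 7 were lower and 1, Hdac7, higher. Hdac5 fell by 1.32 (SE 0.28, adjusted p = 0.00157), Hdac4 by 0.93, Hdac6 by 0.81 and Hdac3 by 0.56. With size factors, and likewise after quantile normalisation, 4 were lower and 1 higher, and Hdac1 moved from -0.30 to 0.0013 with size factors. Among the other genes named from the lists, omission of NC-5 and NC-6 lost the calls of Hdac1, Hdac7, Parp3, Nadsyn1, Afmid and Oard1, and omission of COM-4 to COM-6 those of Hdac1, Nadsyn1, Afmid, Haao and Oard1. The median of the 9 was -0.45. The 7 sirtuins ran from -0.53 (Sirt1) to 0.14 (Sirt6), with Sirt3, the middle value, at -0.43. The median of all 10 sirtuin and NAD genes, which include Nampt, Cd38 and Parp1, was -0.37.

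From COM to COM+Met, 3 genes of these lists passed, the mitochondrial acetyl-CoA synthetase Acss1 higher by 0.89 (SE 0.15, adjusted p = 0.00245), Acss2 lower by 0.81 (SE 0.25, adjusted p = 0.0470) and Kynu lower by 0.50 (SE 0.13, adjusted p = 0.0247). Of these 3, Acss1 alone passed without COM-1 to COM-3 (0.77, adjusted p = 0.0176), where Acss2 was at -0.29 (adjusted p = 0.260) and Kynu at -0.32 (adjusted p = 0.137). The number of calls over the lists depended on which COM samples were used. Of 50 genes tested, 1 was higher and 2 were lower with all COM samples, where 13.4% of all genes passed. Without COM-6, 2 were higher and 10 lower, where 26.6% of all genes passed. Without COM-4 to COM-6, 11 of 51 were higher and 22 lower, where 61.2% of all genes passed, and without COM-1 to COM-3, 7 were higher and 3 lower, where 23.9% passed. Among these, 6 of 8 zinc-dependent deacetylases were lower without COM-4 to COM-6 and 2 of 9 higher without COM-1 to COM-3. Acss1 rose from a mean of 2.77 to 6.02 FPKM and Acss2 fell from 14.0 to 6.97. Between COM and NC both had risen, Acss1 by 0.86 and Acss2 by 0.99. Bst1 differed between COM+Met and COM by -0.24 (SE 0.090, adjusted p = 0.0940), with no overlap.

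**Figure D4:**
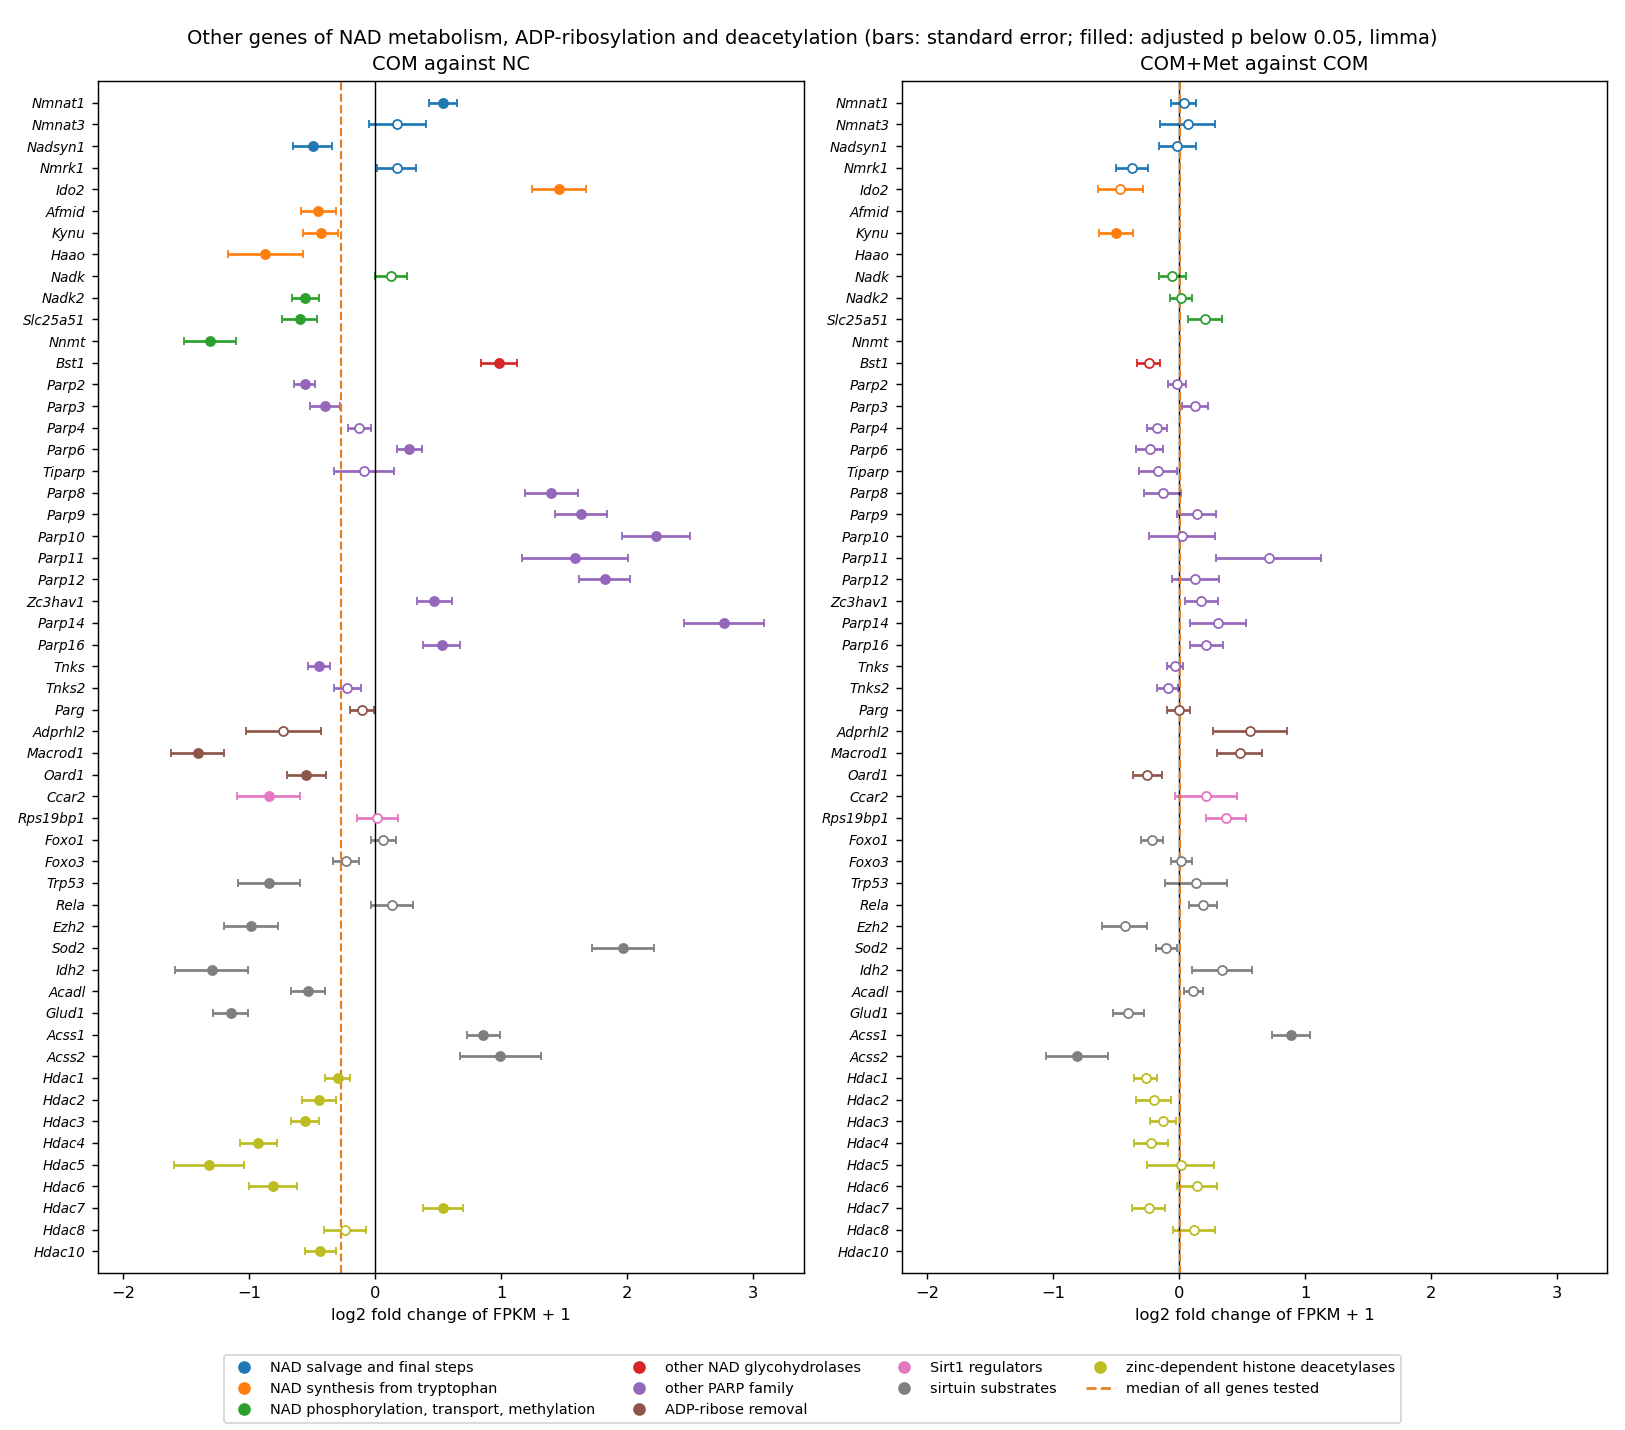
Log2 fold change of FPKM + 1 (horizontal axes) of the other genes of NAD metabolism, ADP-ribosylation and deacetylation (vertical axes, coloured by list) for COM against NC and COM+Met against COM; bars are standard errors, filled points had an adjusted p below 0.05 and genes with no point were not tested. Parp14 was the farthest to the right at 2.77 on the left, and Acss1, Acss2 and Kynu were the filled points on the right.

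The genes with levels most like Sirt1 over the 18 samples, by Pearson correlation of log2(FPKM + 1) among 10750 other genes, were Col4a3bp at 0.817, Cd164 at 0.803 and Taf12 at 0.792. Those most like Nampt were Arl5a at 0.939, C1galt1 at 0.938 and Lsm14b at 0.923. Mean FPKM of Cd164 was 147 in NC, 86.0 in COM and 113 in COM+Met, and that of Arl5a was 39.01, 38.0 and 23.2. The 18 samples of these correlations share their groups and the scaling of each sample.

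**Figure D5:**
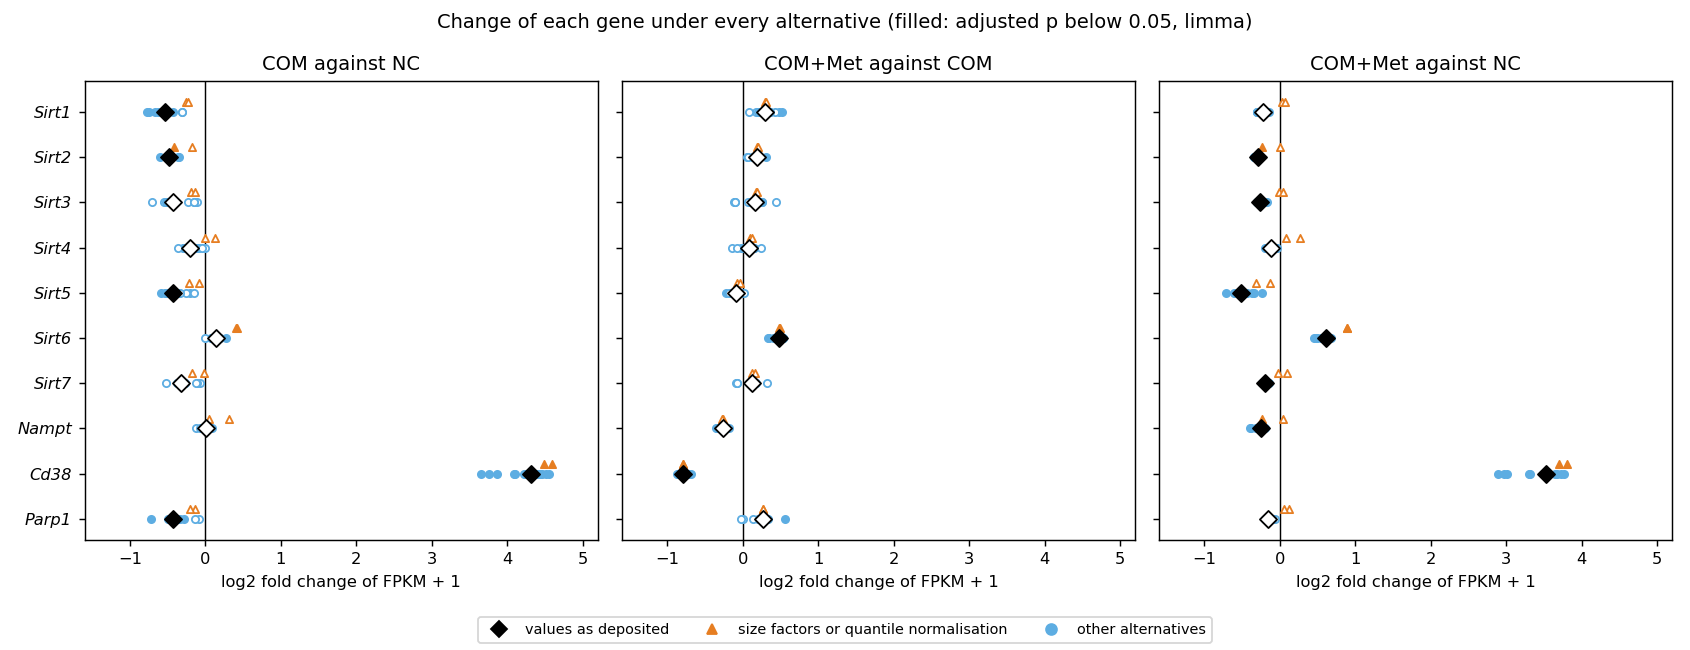
Log2 fold change of FPKM + 1 (horizontal axes) of the 10 genes (vertical axis) under every alternative in the 3 comparisons; diamonds are the values as deposited, triangles the scalings by size factors or quantile normalisation, circles the other alternatives, filled where the adjusted p was below 0.05. Cd38 kept its sign throughout, at 3.65 to 4.597 between COM and NC, while both scalings moved the sirtuins to the right of the values as deposited in the panels against NC.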

How the data were processed

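The samples were macrophage RNA-seq libraries of NC, COM and COM+Met, grouped by their labels, and every sample column was used. The authors deposited FPKM values per gene, made from TruSeq libraries. The submitters' processing notes list the builds mm8 and mm9, and Bowtie 0.12.2. How FPKM was computed, with which annotation and whether by strand, is not given in the sources used here. Because FPKM is relative to the sample's total, large rises in abundant genes lower the values of others.

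After transformation to log2(FPKM + 1), genes averaging 1 FPKM or more in the 12 samples of a comparison entered limma 3.58.1 (lmFit, eBayes with trend; R 4.3.3), at a Benjamini-Hochberg adjusted p threshold of 0.05. Groups did not overlap where all 6 values of one lay on the same side of the other 6. Python 3.11.15 (pandas 2.3.3, numpy 2.4.6; figures by matplotlib 3.10.9) did the rest. In data simulated for COM against NC with 10900 genes, the test found 90 of 100 genes shifted by 1.5 and 31 of 100 shifted by 0.5 (log2), and called 4 of the 10700 unshifted genes. The simulated noise was normal and independent between genes, without the subsets seen among the COM samples, and few genes were shifted. The error rates on the real samples may therefore differ.

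The members, lists and alternatives were chosen with earlier results of these data known. All members are named, and from each list at most 4 genes with the largest change past the threshold. Rps19bp1, Hdac1, Hdac7, Parp2, Parp3 and Tnks were named after their values were seen. For Sirt1 and Nampt the 3 most correlated genes are given. Nnt was left out because 2 rows carry its symbol. Alternatives changed the pseudocount (0.1 or 5), the filter (none, or 5 FPKM), the scaling (TPM, median-of-ratios size factors or quantile normalisation), the model (replicate block, sample weights, or 1 fit of all 18 samples) and the samples (each left out in turn, or NC-5 and NC-6, COM-4 to COM-6, or COM-1 to COM-3 together). Their use on the lists was chosen after seeing the data. Promoter windows and motifs came from RefSeq sequences on GRCm38.p6, and gene positions from GENCODE M21 on GRCm38.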

Additional observations from a re-analysis of the deposited data

Results flagged for a closer look

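In 5 of 30 groups of 6 samples (10 genes in 3 groups), 1 sample lay far from the others relative to the range of its group. Chance alone would mark about 1 group in 20. COM-6 was such a sample for Sirt7, at 11.5 FPKM, where the gap to the next sample was 0.817 of the range, for Sirt3, at 1.10 FPKM (0.646), and for Sirt6, at 4.87 FPKM (0.646). COM+Met-1 stood above the other COM+Met samples for Sirt2, at 65.9 FPKM (0.787), and COM+Met-2 for Sirt6, at 13.7 FPKM (0.635).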

How the results depend on the processing

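The 10 genes were tested in 3 comparisons under all alternatives, which gave 714 values besides the 30 reported, of which 615 kept both their direction and their side of the threshold, 49 dropped below it, 19 passed it and 31 changed sign. No value that changed sign passed the threshold. Causes were not tested.

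Between COM and NC, 5 of the 10 genes passed on the values as deposited. The count over all 10, not always of the same genes, was 3 with no filter, 2 with size factors and 3 after quantile normalisation. It was 3 with sample weights, 3 without NC-5 and NC-6, 3 without COM-4 to COM-6, and 3 to 5 with single samples left out. Of all genes, 36.6% passed with no filter, 46.9% with size factors, 48.1% after quantile normalisation and 66.4% with sample weights. The share was 43.0% without NC-5 and NC-6, 54.3% without COM-4 to COM-6, and 47.9% to 59.6% with single samples left out. Between COM+Met and COM, the count over all 10 was 2 on the values as deposited, 1 with no filter and 1 in the fit of all 18 samples. It was 5 with sample weights, 4 without COM-4 to COM-6, and 1 to 3 with single samples left out. Of all genes, 8.18% passed there with no filter and 17.0% in the fit of all 18 samples. The share was 64.5% with sample weights, 61.2% without COM-4 to COM-6, and 9.08% to 26.6% with single samples left out. On the values as deposited it was 13.4%. Between COM+Met and NC, the count over all 10 was 7 on the values as deposited. It was 2 with size factors and 4 after quantile normalisation, where 70.7% and 70.9% of all genes passed. The labels do not say whether replicate numbers pair the samples. Deviations of same-numbered samples correlated at -0.222 to 0.0569, which cannot decide this because the subsets of COM and NC samples enter these deviations. With the replicate block, 3 genes passed between COM and NC, 1 between COM+Met and COM and 8 between COM+Met and NC. Of all genes, 48.1%, 7.18% and 73.2% passed in these fits.

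Between COM and NC, Sirt4 turned to 0.13 after quantile normalisation and Sirt6 to -0.0020 without NC-5 and NC-6. Nampt turned to -0.044 with sample weights, -0.12 without NC-5 and NC-6 and -0.071 without COM-1 to COM-3, and ranged from -0.050 to 0.061 with single samples left out. Between COM+Met and COM, sample weights gave -0.11 for Sirt3, -0.14 for Sirt4 and -0.085 for Sirt7, and omission of COM-4 to COM-6 gave -0.11, -0.072 and -0.076, and -0.021 for Parp1. With single samples left out these 3 sirtuins ranged from -0.11 to 0.26, -0.026 to 0.15 and -0.079 to 0.18, negative without COM-6. Sirt5 was 0.015 without COM-1 to COM-3. Between COM+Met and NC, size factors gave 0.024 for Sirt1, 0.085 for Sirt4, 0.090 for Sirt7, 0.038 for Nampt and 0.12 for Parp1, and quantile normalisation gave 0.071 for Sirt1, 0.043 for Sirt3, 0.26 for Sirt4 and 0.059 for Parp1. Depth is unknown, so the precision of low values such as those of Sirt4 and Sirt5 could not be given.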
